A study of Astyanax mexicanus with 12 samples.

Results

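Gene symbols that mark macrophages and other leukocytes, 10 in all, were looked up by name, ignoring case, in a table of liver transcript abundance of Astyanax mexicanus, a teleost with eyeless cave populations and river-dwelling surface populations. Of the 10 symbols, 7 (PTPRC, coro1a, spi1b, MPEG1, cd74a, csf1ra and adam8a) each matched 1 of the 27420 genes in the table, and csf1rb, marco and cd74b matched no row and were not analysed here. All 7 were among the 12895 genes that reached 1 TPM in at least 3 of the 12 libraries and were tested. TPM corrects reads for transcript length, and the values of a library add up to a fixed total. The groups, with 3 adult liver libraries each, were wild-caught cave fish (cave wild, titled Pachón), laboratory cave fish (cave lab, titled Pachón), wild-caught surface fish (surface wild) and laboratory surface fish (surface lab). All fish had been fasted for 12 hours. The sources used here give neither the origin of the surface fish, nor sex or age beyond adult, nor whether the libraries of a group came from separate fish, so p-values measure only the spread between these libraries.

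Leukocytes are a small part of the liver. In the mammalian liver resident macrophages line the blood vessels, take up particles and old red blood cells, and recycle iron. In fish and mammals the receptor tyrosine kinase encoded by csf1r genes binds the ligands Csf1 and Il34 and keeps macrophages alive, and the transcription factor PU.1, encoded by spi1 genes, sets up the myeloid lineage. Teleost fish carry duplicated copies of several of these genes, and because RSEM, the estimator named in the submitters' processing notes, divides reads shared by close duplicates, values of such genes are uncertain.

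Hepatocyte genes were abundant in all libraries. The summed abundance of 28 hepatocyte markers was 106900 to 194890 TPM. The 7 leukocyte genes together came to 29.6 to 138.6 TPM in a library. Cave wild libraries differed from the rest in composition. Genes for cytosolic ribosomal proteins took 32.7% to 35.9% of their TPM, against 11.3% to 23.6% in the other 9 libraries, and 9144 to 10034 genes reached 1 TPM, against 10924 to 12343. The median tested gene was 0.46 lower on the log2 scale in cave wild than in surface wild libraries and 0.69 lower than in cave lab libraries. Results are therefore given also after median-of-ratios scaling, which divides a library by its median ratio to the geometric mean of the 12, over genes never at 0, and brought the median gene to between -0.03 and 0.01 in all 5 comparisons. Libraries 1 and 2 of surface wild scored 113 and 101.1 on the first principal component of all tested genes (against 37.3 for library 3 and -61.5 to 8.4 in the other groups), and results are also given without this pair, where the 1 library left in surface wild is assumed to vary like the other groups. Without it 226 genes were called between the wild-caught forms, against 4074 with it, and 154 between surface wild and surface lab, against 2317. The 4 pairwise comparisons share groups and are not independent of each other.

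PTPRC (ENSAMXG00000042836) encodes CD45, a tyrosine phosphatase on the surface of leukocytes. Its abundance was 1.52, 3.98 and 2.99 TPM in the cave wild libraries, 8.54, 10.12 and 9.23 TPM in cave lab, 10.21, 7.12 and 9.46 TPM in surface wild, and 4.99, 2.36 and 4.62 TPM in surface lab. The cave lab and surface wild libraries were thus the high ones, with overlapping values, and the surface lab and cave wild libraries were the low ones, also overlapping. Between forms, PTPRC was lower in cave wild than in surface wild livers (log2 difference of log2(TPM + 1), -1.42 ± 0.31 SE; limma adjusted p = 0.0106). Between the laboratory groups the difference was 1.09 ± 0.31 and did not pass (limma adjusted p = 0.0584). Within forms, PTPRC was lower in cave wild than in cave lab livers (-1.48 ± 0.31, limma adjusted p = 0.00584) and higher in surface wild than in surface lab livers (1.02 ± 0.31, limma adjusted p = 0.0426). In bulk tissue, fewer leukocytes and less of a transcript per leukocyte cannot be told apart, here and for the genes that follow.

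coro1a (ENSAMXG00000008438) encodes coronin 1A, an actin-binding protein of blood cells. It stood at 3.72, 5.81 and 5.09 TPM in cave wild, 10.94, 15.55 and 11.25 TPM in cave lab, 18.35, 11.67 and 14.45 TPM in surface wild, and 7.22, 7.66 and 7.25 TPM in surface lab livers. The order of the groups matched that of PTPRC at the low end, while surface wild had the highest mean (14.8 ± 3.36 TPM, SD, n = 3) and overlapped with cave lab (12.6 ± 2.58 TPM). The gene was lower in cave wild than in surface wild (-1.43 ± 0.27, limma adjusted p = 0.00637) and than in cave lab livers (-1.21 ± 0.27, limma adjusted p = 0.0073). In surface fish it was higher in wild-caught than in laboratory livers (0.90 ± 0.27, limma adjusted p = 0.0408). The laboratory form difference of 0.68 ± 0.27 did not pass (limma adjusted p = 0.172), although the 3 cave lab libraries all lay above the 3 surface lab libraries.

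spi1b (ENSAMXG00000041741), a gene for PU.1, was near the detection filter. It reached 1 TPM in all 3 cave lab and all 3 surface wild libraries, 1 surface lab library and no cave wild library. The filter was thus passed mainly through the groups in which spi1b was high. Calls of this gene, here and below, are given as a description. It was found at 0.24, 0.76 and 0.97 TPM in cave wild, 1.8, 3.72 and 1.67 TPM in cave lab, 4.04, 3.37 and 1.39 TPM in surface wild, and 1.87, 0.69 and 0.77 TPM in surface lab livers. All 3 cave wild libraries lay below all 3 surface wild and all 3 cave lab libraries, whereas both laboratory groups overlapped. The difference was -1.21 ± 0.35 between the wild-caught forms (limma adjusted p = 0.0236) and -1.01 ± 0.35 between cave wild and cave lab (limma adjusted p = 0.0392), and for a gene this low the added pseudocount of 1 TPM understates it. Neither the laboratory form difference (0.68 ± 0.35, limma adjusted p = 0.30) nor the surface wild difference from surface lab (0.87 ± 0.35, limma adjusted p = 0.0952) passed.

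MPEG1 (ENSAMXG00000015353) encodes perforin-2, a pore-forming protein that macrophages use against engulfed bacteria and the basis of macrophage reporter lines in zebrafish. It was measured at 1.58, 2.3 and 2.44 TPM in cave wild, 8, 10.33 and 8.36 TPM in cave lab, 8.38, 4.49 and 12.75 TPM in surface wild, and 3.23, 1.97 and 3.85 TPM in surface lab livers. MPEG1 was the only one of the 7 to pass in all 4 pairwise comparisons. It was lower in cave wild than in surface wild (-1.53 ± 0.33, limma adjusted p = 0.00989), higher in cave lab than in surface lab (1.32 ± 0.33, limma adjusted p = 0.0309), lower in cave wild than in cave lab (-1.68 ± 0.33, limma adjusted p = 0.00443) and higher in surface wild than in surface lab livers (1.18 ± 0.33, limma adjusted p = 0.0323). The laboratory call was lost without cave lab 1, 2 or 3 or surface lab 1 or 2 (limma adjusted p from 0.0661 to 0.118), with the log2 difference between 1.12 and 1.47 in all leave-one-out fits.

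**Figure D1:**
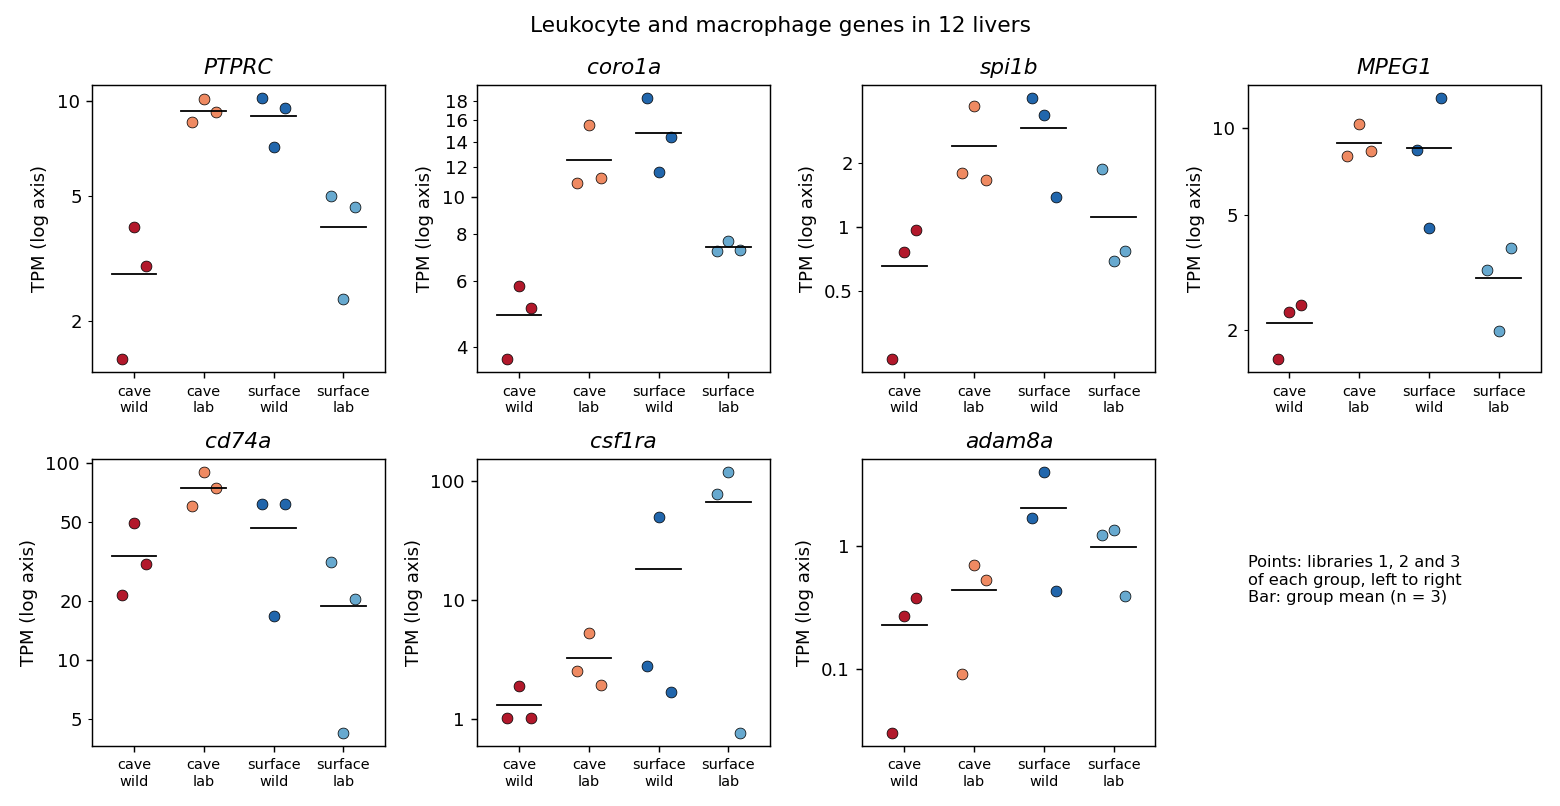
Abundance of the 7 genes in TPM on log axes, with libraries 1, 2 and 3 of each group as points from left to right and the group mean as a bar. PTPRC, coro1a and MPEG1 are high in cave lab and surface wild livers and low in cave wild and surface lab livers, while csf1ra is high in 3 surface libraries (50.4, 77.97 and 120.28 TPM) and between 0.77 and 5.33 TPM in the other 9.

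For PTPRC, coro1a, spi1b, MPEG1 and cd74a the estimated form difference had opposite signs in the 2 environments. The difference between the form differences was tested as the interaction, cave minus surface in wild-caught livers minus the same in laboratory livers. It was -2.86 ± 0.47 for MPEG1 (limma adjusted p = 0.0104), -2.50 ± 0.45 for PTPRC (limma adjusted p = 0.0144), -2.11 ± 0.38 for coro1a (limma adjusted p = 0.0155) and -1.88 ± 0.49 for spi1b (limma adjusted p = 0.048). For cd74a it was -2.60 ± 0.94 and did not pass (limma adjusted p = 0.0974). Over all tested genes 4.19% were called lower in the interaction, with a median of -0.61. MPEG1, PTPRC and coro1a passed in each of the 12 fits that left out 1 library. spi1b passed only in the fit without surface wild 3, with limma adjusted p up to 0.104 in the others. Without both surface wild 1 and 2 the interaction of MPEG1 was -3.48. That fit leaves 1 library in surface wild, so none of these calls is taken to hold there.

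Over the 7 genes, 5 were called lower in cave wild than in surface wild livers, a call that 26.5% of all tested genes received. The 7 had a median log2 difference of -1.42 against -0.46 for all tested genes. In the same comparison 5 genes had all cave wild libraries below all surface wild libraries, which held for 37.2% of tested genes. Both counts of 5 include adam8a, which reached 1 TPM in surface libraries only, and spi1b, which did so in no cave wild library. Both genes thus passed the filter through groups in which they were high, and their part in these counts is a description. In the laboratory comparison 1 of the 7 was called higher in cave lab than in surface lab livers (5.26% of tested genes), with a median of 0.68 against 0.10, and 4 had no overlap in that direction (18.7% of tested genes). Between cave wild and cave lab livers 4 were called lower (34.3% of tested genes) and 6 had no overlap (56.6% of tested genes). Both of these counts also include spi1b. The 7 had a median of -1.19 against -0.69 for all tested genes. Between surface wild and surface lab livers 3 were called higher, against 6.77% of tested genes, and 3 had no overlap in that direction, against 10.6%. The median of the 7 was 0.90, where that of all tested genes was -0.11.

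**Figure D2:**
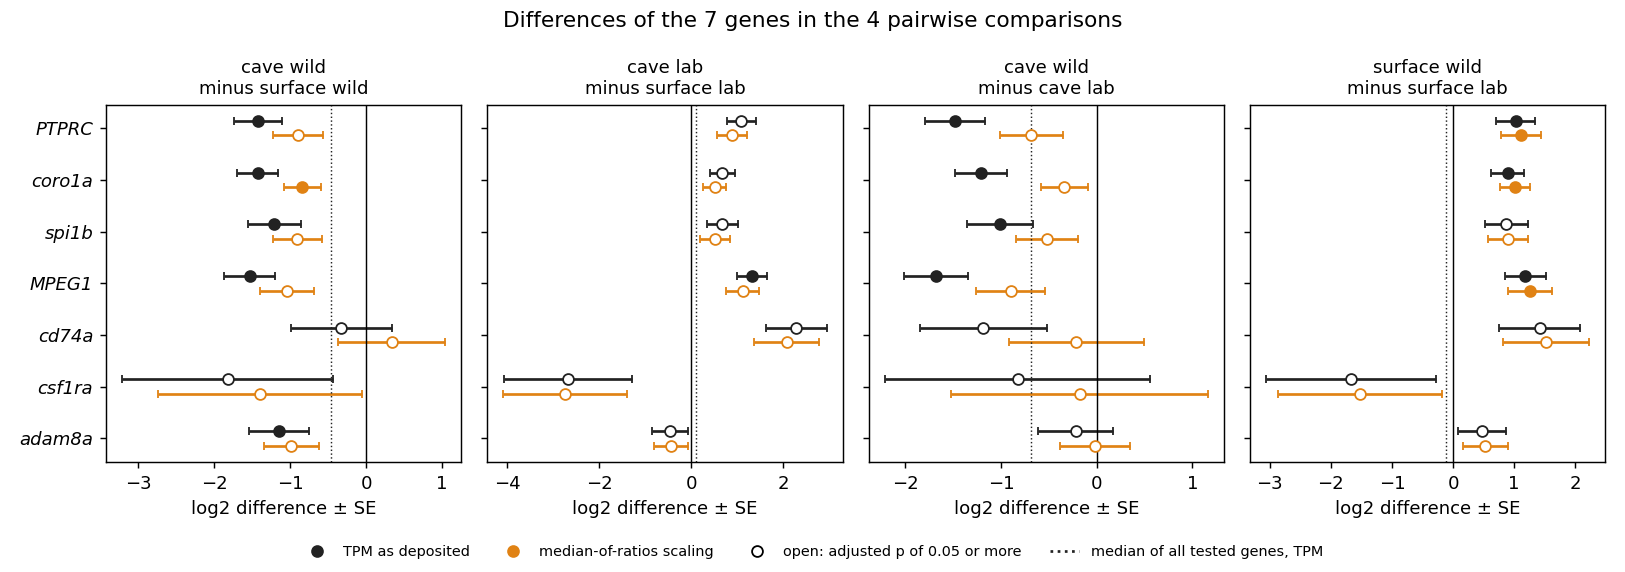
Log2 differences of the 7 genes with their standard errors in the 4 pairwise comparisons, from TPM as deposited (black) and after median-of-ratios scaling (orange), with filled points for an adjusted p below 0.05. The dotted line is the median of all tested genes on the TPM scale, at -0.46, 0.10, -0.69 and -0.11 from left to right, and MPEG1, the gene called in all 4 from TPM, keeps a filled orange point between surface wild and surface lab only.

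Scaling changed which of these calls held. After median-of-ratios scaling 1 of the 7 was still called lower in cave wild than in surface wild livers (7.85% of tested genes), namely coro1a (-0.84 ± 0.24, limma adjusted p = 0.0365). MPEG1 was then at -1.04 (limma adjusted p = 0.064), spi1b at -0.90 (0.0713) and PTPRC at -0.90 (0.0752). These 3 genes and coro1a still had no overlap between cave wild and surface wild libraries. The share of all tested genes without overlap was not computed after scaling, so this is given as a description only. None of the 7 was called by limma in the other comparisons with a cave group after this scaling, where 3.48% of tested genes were called higher between the laboratory groups, 3.53% lower between cave wild and cave lab, and 0.659% lower in the interaction. At an unadjusted p below 0.05, limma gave 3, 1 and 4 of the 7 in these comparisons, and 2491, 3337 and 2517 of all 12895 tested genes. The surface comparison moved little, with 3 of the 7 called higher after scaling (9.48% of tested genes): coro1a (1.01, limma adjusted p = 0.02), MPEG1 (1.26, 0.034) and PTPRC (1.11, 0.0379). The direction of PTPRC, coro1a, spi1b and MPEG1 was the same with and without scaling in all 5 comparisons.

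The surface calls rested on few libraries. Leaving out 1 library ended the call of MPEG1 without surface wild 1 or 3 or surface lab 1, 2 or 3 (limma adjusted p from 0.0512 to 0.0953). PTPRC kept its call in 3 of 12 fits (those without cave wild 1 or 2 or without surface lab 1), and coro1a in 3 (those without cave wild 1 or 2 or without surface wild 3), with limma adjusted p up to 0.13 and 0.131 in the other 9 fits of each. With the replicate number as a block, which these 2 groups share in the labels, MPEG1 stayed called (limma adjusted p = 0.0326), and coro1a (0.0554) and PTPRC (0.0582) did not. In the cave wild comparisons with surface wild and cave lab, by contrast, the calls of PTPRC, coro1a and MPEG1 held in all 12 leave-one-out fits. spi1b lost its call between the wild-caught forms without cave wild 1 or 2 or surface wild 1 or 2 (limma adjusted p from 0.0587 to 0.0854). Its call between cave wild and cave lab was lost when any single library of these 2 groups was left out (limma adjusted p from 0.0504 to 0.148). Without both surface wild 1 and 2, only MPEG1 stayed called between the wild-caught forms (-2.16, limma adjusted p = 0.0161), with coro1a at 0.0843 and PTPRC at 0.14.

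cd74a (ENSAMXG00000043066) encodes the invariant chain, which accompanies MHC class II molecules in antigen-presenting cells, and it was the most abundant of the 7 in 9 of the 12 libraries. Its abundance was 21.45, 49.32 and 30.67 TPM in cave wild, 60.07, 90.14 and 74.6 TPM in cave lab, 61.96, 16.82 and 61.57 TPM in surface wild, and 31.43, 4.28 and 20.45 TPM in surface lab livers. Cave lab livers were the highest group (74.9 ± 15.0 TPM, SD, n = 3) and lay above all surface lab livers (18.7 ± 13.7 TPM), and library 2 of each surface group lay far below the other two libraries of its group. No comparison of cd74a passed. The difference was -0.32 ± 0.66 between the wild-caught forms (limma adjusted p = 0.73), and it changed sign to 0.34 after median-of-ratios scaling. Between the laboratory forms it was 2.28 ± 0.66 (limma adjusted p = 0.0589), which passed without surface wild 2 (0.0372) or surface lab 1 (2.82, 0.0391). It was -1.19 ± 0.66 between cave wild and cave lab (limma adjusted p = 0.173) and 1.42 ± 0.66 between surface wild and surface lab livers (0.147).

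A ratio of 2 genes within a library does not depend on how libraries are scaled. The ratio of cd74a to PTPRC was 14.1, 12.4 and 10.3 in cave wild, 7.03, 8.91 and 8.08 in cave lab, 6.07, 2.36 and 6.51 in surface wild, and 6.30, 1.81 and 4.43 in surface lab livers. It was thus higher in each of the 6 cave libraries than in each of the 6 surface libraries, which held for 1.57% of tested genes when each was set against PTPRC. The mean log2 ratio was 3.30 in cave and 2.03 in surface libraries. The surface mean is lowered by surface wild 2 and surface lab 2, which had the lowest ratios (2.36 and 1.81). Both are among the libraries with high csf1ra described below, and the mean without both was not computed. The ratio of cd74a to PTPRC was picked out after its values were seen and is given without a test. With coro1a as the denominator the groups also had no overlap (5.49 to 8.49 in cave, 0.559 to 4.35 in surface libraries). With MPEG1 the forms overlapped, the ratio of MPEG1 to cd74a being 0.0466 to 0.133 in cave and 0.103 to 0.46 in surface libraries. Of the 21 pairs among the 7 genes, these were the 2 without overlap between cave and surface libraries. Ratios of the other genes to PTPRC overlapped between the forms, and that of MPEG1 stayed between 0.578 and 1.35 and that of coro1a between 1.22 and 3.25 over all 12 libraries.

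Class II presentation was followed in a list with 8 other tested genes. The list also holds genes of antigen-presenting cells that are not part of class II presentation itself, such as cd40 and flt3. ciita, the master activator of class II genes and of the invariant chain, stood at 0.42, 0.86 and 0.7 TPM in cave wild, 1.71, 1.43 and 1 TPM in cave lab, 0.92, 0.17 and 0.77 TPM in surface wild, and 0.14, 0.09 and 0.26 TPM in surface lab livers. It reached 1 TPM in the 3 cave lab libraries only and so passed the filter through the group in which it was highest. Its level and its ratio to PTPRC are therefore given as a description. The ratio was 0.108 to 0.276 in cave libraries against 0.0239 to 0.0901 in surface libraries, without overlap. None of the other 7 tested genes of the list showed this. The costimulatory receptor gene cd40 was higher in cave lab than in surface lab livers (1.29 ± 0.30, limma adjusted p = 0.022), without a call after scaling (0.0621). Of the 8 genes 3 were called higher in that comparison (5.26% of tested genes): cd40, ciita and the dendritic cell growth factor receptor gene flt3. flt3 reached 1 TPM in 4 libraries, all of them cave, and cd40 did so in 3 cave lab libraries and no surface lab library. Since ciita and flt3 passed the filter only through cave libraries, this count is given as a description. Between the wild-caught forms 1 of the 8, rfxap, was called lower (26.5% of tested genes) and none higher, with a median of -0.41 against -0.46 for all tested genes. After median-of-ratios scaling the count turned to 1 higher, flt3, and none lower, where 1299 of 12895 tested genes were called higher and 1012 lower. Between surface wild and surface lab livers limma called none of the 8, also at an unadjusted p below 0.05, where it gave 0.

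**Figure D3:**
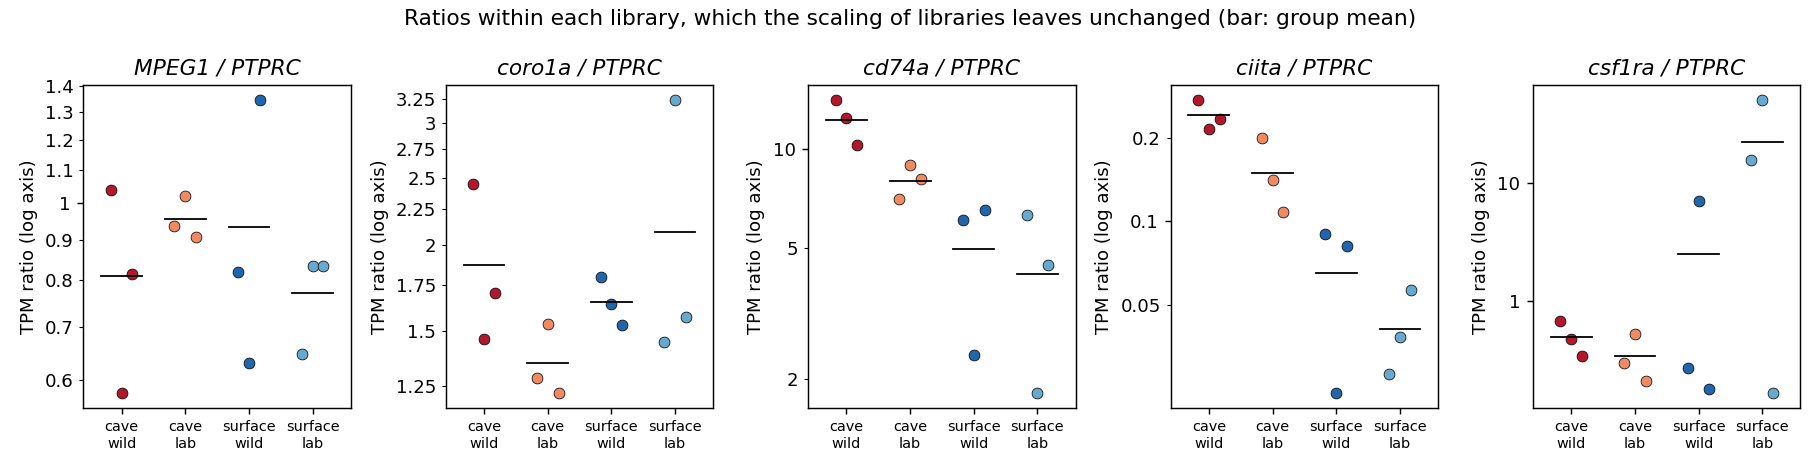
Abundance of MPEG1, coro1a, cd74a, ciita and csf1ra divided by that of PTPRC in the same library, on log axes, with points for libraries 1, 2 and 3 from left to right and bars for group means. The cd74a ratio is 7.03 or more in cave and 6.51 or less in surface libraries, the MPEG1 and coro1a ratios overlap between cave and surface libraries, and the csf1ra ratio is 7.08, 15.6 and 51.0 in 3 surface libraries and below 1 elsewhere.

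csf1ra (ENSAMXG00000017088), the receptor gene of the macrophage growth factors, did not follow the other genes except adam8a. Its Pearson correlation of log2(TPM + 1) over the 12 libraries was 0.71 with adam8a and -0.58 with cd74a. With MPEG1, PTPRC, coro1a and spi1b it was between -0.23 and 0.22. These correlations are given as a description. csf1ra was at 1.03, 1.89 and 1.03 TPM in cave wild, 2.55, 5.33 and 1.95 TPM in cave lab, 2.78, 50.4 and 1.71 TPM in surface wild, and 77.97, 120.28 and 0.77 TPM in surface lab livers. The 3 high libraries, surface wild 2 and surface lab 1 and 2, did not stand out in MPEG1, at 4.49, 3.23 and 1.97 TPM, and surface lab 3 in the same group held the lowest csf1ra value of all 12. No comparison of csf1ra passed (limma adjusted p from 0.312 to 0.661 in the pairwise comparisons), with standard errors of 1.39 on the log2 scale, against 0.27 to 0.66 for the other 6 genes. Without surface lab 3 it was called lower in cave lab than in surface lab (-4.60, limma adjusted p = 0.0166) and lower in surface wild than in surface lab livers (-3.60, 0.0459). The part of these 3 libraries in the csf1ra values was not tested further.

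Of the ligands of this receptor, csf1a was at 0.11, 0.25 and 0.13 TPM in cave wild, 0.24, 0.33 and 0.02 TPM in cave lab, 0.57, 0.07 and 0.69 TPM in surface wild, and 2.08, 1.32 and 7.65 TPM in surface lab livers. All 3 surface lab libraries thus exceeded the other 9. It reached 1 TPM in no other library, so it passed the filter only through the group in which it was high, and no test of it is given. The other ligand gene il34 ranged from 0.45 to 2.24 TPM over the 12 libraries, and csf1b was listed at 0 in all libraries but cave wild 2, at 0.05 TPM. Over 19 tested genes of the receptor pathway other than the 7, ligands included, 5 were called lower and 1 higher in cave wild than in surface wild livers, close to the 26.5% and 5.13% of all tested genes. After median-of-ratios scaling 1 was lower and 1 higher. In cave lab against surface lab livers 2 were called higher, with and without scaling (5.26% and 3.48% of tested genes). The only gene called lower there, and between surface wild and surface lab livers, was csf1a, which is not counted for the reason given above. Between cave wild and cave lab livers 9 were called lower, where 34.3% of tested genes were, and 1 after scaling. Between surface wild and surface lab livers 2 were higher (6.77% of tested genes), and after scaling 3 were (9.48%). Among them ptpn6, which encodes the phosphatase SHP-1, a brake on this and other receptors, gave the pattern of PTPRC: lower in cave wild than in surface wild (-1.07 ± 0.30, limma adjusted p = 0.0227), higher in cave lab than in surface lab (1.19 ± 0.30, 0.0323) and higher in surface wild than in surface lab livers (1.11 ± 0.30, 0.0287). After scaling the laboratory and surface calls of ptpn6 remained (0.0423 and 0.0133) and that between the wild-caught forms did not (0.231). Without surface wild 1 and 2 the laboratory call of ptpn6 remained (limma adjusted p = 0.0136), and those between the wild-caught forms (0.491) and between the surface groups (0.487) did not.

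adam8a (ENSAMXG00000003629) encodes a membrane metalloprotease that leukocytes carry in mammals. It had the lowest mean of the 7 over the 12 libraries, though it was above spi1b in surface wild 2 and surface lab 2, and stood at 0.03, 0.27 and 0.38 TPM in cave wild, 0.09, 0.71 and 0.53 TPM in cave lab, 1.71, 4.08 and 0.43 TPM in surface wild, and 1.24, 1.36 and 0.39 TPM in surface lab livers. As with csf1ra, library 3 was the lowest in both surface groups. adam8a reached 1 TPM in 4 libraries, all of them surface, so it passed the filter only through the form in which it was high. Its call is therefore given as a description. It was called lower in cave wild than in surface wild livers (-1.15 ± 0.39, limma adjusted p = 0.0433), with the nearest libraries at 0.38 and 0.43 TPM. That call held in 4 of 12 leave-one-out fits (without surface lab 2 or 3, surface wild 3 or cave lab 1) and was lost in the other 8 (limma adjusted p from 0.0522 to 0.165), after median-of-ratios scaling and without both surface wild 1 and 2 (-0.23, limma adjusted p = 0.757). In the laboratory comparison it was at -0.46 ± 0.39 (limma adjusted p = 0.584), the sign opposite to that of the other genes except csf1ra.

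The genes whose abundance was most like the mean z score of the 7, by Pearson correlation of log2(TPM + 1) over the 12 libraries, included further leukocyte genes. Among the 10 most alike (r from 0.93 to 0.97, given as a description, since the libraries share their scaling and form 4 groups) were itgb2, the common chain of leukocyte integrins, lcp1, the leukocyte actin bundler L-plastin, rac2, a GTPase of blood cells, and fcer1g, the signalling chain of Fc receptors. tmsb4x, an actin-binding thymosin, stood among them at 202.78 to 281.14 TPM in cave wild, 350.4 to 457.91 TPM in cave lab, 353.86 to 404.09 TPM in surface wild and 239.86 to 276.41 TPM in surface lab livers. The other 5 were zgc:172352, ABHD17C (1 of many), si:ch211-106a19.1, azin1 and myh9a. itgb2 was at 1.98, 5.2 and 3.82 TPM in cave wild, 7.95, 12.21 and 7.9 TPM in cave lab, 15.65, 13.48 and 10.51 TPM in surface wild, and 4.72, 4.83 and 4.66 TPM in surface lab livers.

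A list of pan-leukocyte genes for signalling and the cytoskeleton had 37 tested genes besides the 7. In cave wild against surface wild livers 23 were called lower (26.5% of tested genes) and none higher, with a median of -0.86 against -0.46 for all tested genes. Of these, 9 stayed called after median-of-ratios scaling (7.85% of tested genes). These included btk, a kinase of B and myeloid cells (-1.16 ± 0.20, limma adjusted p = 0.00452), and itgb2 (-1.65 ± 0.31, 0.00587), with adjusted p of 0.0126 and 0.0194 after scaling. btk reached 1 TPM in 4 libraries, 3 of them surface wild, so it passed the filter through the group in which it was high. Its calls, here and without surface wild 1 and 2, are given as a description. In cave lab against surface lab livers 3 were called higher (5.26% of tested genes), led by coro1b (1.57 ± 0.23, limma adjusted p = 0.00102), a coronin found in many cell types. In cave wild against cave lab livers 21 were called lower (34.3% of tested genes), with a median of -0.74 against -0.69. After scaling limma gave 0 of the 37, also at an unadjusted p below 0.05. Between surface wild and surface lab livers 11 were higher (6.77% of tested genes) and 2 lower (11.2%), with a median of 0.62 against -0.11. After scaling 16 were higher (9.48% of tested genes), all 11 among them, and 1 lower. With the replicate block 8 were higher and 1 lower, where 904 of 12895 tested genes were higher and 1439 lower. rac2 (1.30 ± 0.32, limma adjusted p = 0.0199) and itgb2 (1.29 ± 0.31, 0.0182) were among the genes higher in surface wild livers. Without surface wild 1 and 2, 2 of the 37 were lower between the wild-caught forms (1.21% of tested genes), 1 of them btk (limma adjusted p = 0.0336), and 1 was higher between surface wild and surface lab (0.473% of tested genes), namely coro1b (1.75, limma adjusted p = 0.0272). itgb2 was then at limma adjusted p = 0.165 and 0.304 in these comparisons, and rac2 at 0.324 between the surface groups.

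Among 15 other tested macrophage markers the calls were more mixed. In cave wild against surface wild livers 6 were lower (26.5% of tested genes), 2 of them also after scaling (7.85%). These 2 were slc40a1 (limma adjusted p = 0.0333 after scaling) and lgmn (0.0422), described below. In cave lab against surface lab livers 2 were higher and 1 lower, with and without scaling (5.26% and 3.48% of tested genes higher). Between surface wild and surface lab livers 1 was higher (6.77%) and 1 lower (11.2%), and after scaling 3 were higher (9.48%) and none lower. In cave wild against cave lab livers 5 were lower, close to the 34.3% of all tested genes, 1 of them also after scaling (3.53%). That 1 was slc40a1, which encodes the iron exporter ferroportin, at 9.26, 13.55 and 12.73 TPM in cave wild, 80.39, 160.54 and 158.13 TPM in cave lab, 64.46, 72.85 and 39.52 TPM in surface wild, and 26.89, 64.01 and 81.55 TPM in surface lab livers. Its difference between cave wild and cave lab was -3.33 ± 0.45 (limma adjusted p = 0.00115) and -2.38 after scaling (0.00883), and other liver cells also express it. irf8, a transcription factor needed for macrophages in zebrafish, was higher in cave lab than in surface lab (1.58 ± 0.37, limma adjusted p = 0.0201) and higher in surface wild than in surface lab livers (1.22 ± 0.37, 0.0391), and both calls held after scaling (0.0487 and 0.034). Without surface wild 1 and 2 the laboratory call of irf8 held (limma adjusted p = 0.00755) and the surface call did not (0.189), and of these 15 markers 1, ctsk, was lower between the wild-caught forms (0.0137), slc40a1 being at 0.239. lgmn, a lysosomal protease gene that is not restricted to macrophages, went the other way in both comparisons in which irf8 was called. Between the laboratory forms it was at 60.51, 45.34 and 37.81 TPM in cave lab against 178.95, 172.06 and 236.57 TPM in surface lab livers (-2.02 ± 0.43, limma adjusted p = 0.013). It was also lower in surface wild than in surface lab livers (-1.48 ± 0.43, limma adjusted p = 0.0359), without a call after scaling (0.0512). The complement gene c1qc ranged from 2.98 to 25.9 TPM over all libraries, and timd4 stayed at or below 0.1 TPM.

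**Figure D4:**
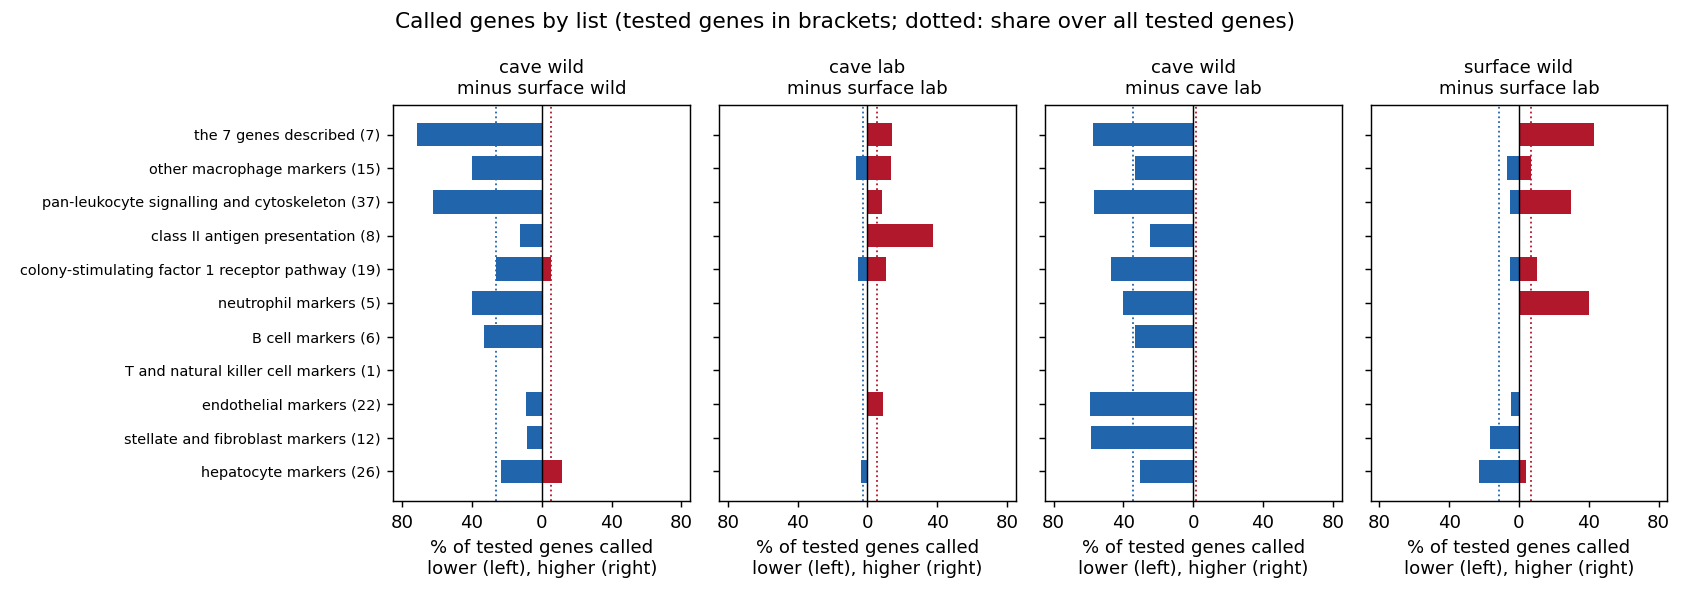
Share of the tested genes of each list called lower (blue, left) and higher (red, right) in the 4 pairwise comparisons on the TPM scale, with the number tested in brackets and dotted lines for the share over all tested genes. Of 37 pan-leukocyte genes 23 are lower in cave wild than in surface wild and 11 higher in surface wild than in surface lab livers, and the 22 endothelial and 26 hepatocyte genes have 2 and 6 lower in the first of these comparisons and 1 and 6 lower in the second.

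Markers of other white blood cells were scarce. Only 5 of 15 neutrophil genes reached the filter, and 24 T and natural killer cell genes together summed to 3.79 to 14.27 TPM, with only il2rga (0.52 to 1.68 TPM) tested. The neutrophil genes s1pr4 and csf3r were lower in cave wild than in surface wild livers (-1.41 ± 0.32 and -1.35 ± 0.33, limma adjusted p = 0.0115 and 0.0138) and higher in surface wild than in surface lab livers (1.28 ± 0.32 and 1.13 ± 0.33, 0.0223 and 0.0362). Neither gene reached 1 TPM in a cave wild or surface lab library. Both passed the filter only through the groups in which they were high, so these calls are given as a description. All 4 calls held after scaling, and none of them without surface wild 1 and 2 (limma adjusted p from 0.354 to 0.628). The other 3 of the 5 tested neutrophil genes were not called in either comparison. The 15 neutrophil genes summed to 2.14 to 9.32 TPM in cave wild, 7.45 to 10.04 TPM in cave lab, 8.53 to 29.72 TPM in surface wild and 4.29 to 12.25 TPM in surface lab livers. Of 6 tested B cell genes, 2 (swap70a and swap70b) were lower in cave wild than in surface wild and than in cave lab livers (26.5% and 34.3% of tested genes), without a call after scaling. These 2 also reached 1 TPM in no cave wild or surface lab library. cd79a, a chain of the B cell receptor, reached at most 2.45 TPM and was listed at 0 in 4 libraries. The part of neutrophils in the results of the 7 genes was not tested.

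Calls were also made among markers of other cell types. Over all 12895 tested genes, median-of-ratios scaling called 1012 lower and 1299 higher between the wild-caught forms. It called 455 lower and 484 higher between cave wild and cave lab, and 1141 lower and 1222 higher between the surface groups. Without this scaling 5.13% were called higher between the wild-caught forms and 6.77% between the surface groups. Endothelial markers gave 2 of 22 lower in cave wild than in surface wild livers, 13 lower in cave wild than in cave lab, and 1 lower in surface wild than in surface lab, against 26.5%, 34.3% and 11.2% of all tested genes called lower. After median-of-ratios scaling the 13 became 1 lower and 1 higher. Stellate and fibroblast markers gave 1, 7 and 2 of 12 lower in these comparisons, and the 7 became 1 after scaling. Hepatocyte markers gave 6 of 26 lower and 3 higher between the wild-caught forms, which turned to 1 lower and 5 higher after scaling. Of the same 26, 8 were lower in cave wild than in cave lab livers, against 0 lower and 1 higher after scaling, where limma gave 3 lower at an unadjusted p below 0.05. Between surface wild and surface lab livers 6 were lower and 1 higher. Red blood cell and thrombocyte markers had calls opposite in direction to those of PTPRC between the surface groups, with 5 of 13 lower in surface wild than in surface lab livers and none higher, the same 5 after scaling. These included hbba2, a globin gene (-3.08 ± 0.56, limma adjusted p = 0.00622), and slc4a1a, the red cell anion exchanger gene (-2.23 ± 0.39, 0.00558). The 17 genes of this list summed to 168.67 to 239.94 TPM in cave wild, 300.91 to 371.33 TPM in cave lab, 54.02 to 96.02 TPM in surface wild and 231.1 to 449.17 TPM in surface lab livers. In cave wild they were lower than in cave lab livers for 8 of 13, and after scaling limma gave 0, with 4 at an unadjusted p below 0.05. Between the wild-caught forms 2 were higher and 1 lower, and after scaling 4 were higher. Without surface wild 1 and 2, limma called none of the 13 between the surface groups, with 5 lower at an unadjusted p below 0.05. The part of blood content in the results of the 7 genes was not tested.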

How the data were processed

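The deposited values are TPM, computed by the authors from single reads of 75 nt of stranded mRNA libraries, per the labels' protocols. Per the submitters' processing notes, the tools included bcl2fastq 2.18, STAR 2.6.1c and RSEM (no version given). The sources used here do not give build, annotation or filters. TPM keeps no depth, so read numbers and counting error are unknown.

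The 12895 genes that reached 1 TPM in 3 libraries or more were analysed as log2(TPM + 1) with limma 3.58.1 in R 4.3.3: a linear model of 4 group means, eBayes with a trend, two-sided, Benjamini-Hochberg adjusted over all tested genes per comparison, threshold 0.05. The script was tested on simulated data. The 10 symbols and the gene lists were chosen with earlier results of these data known. Besides the 7 matched genes, the text names up to 3 called genes with the smallest adjusted p per list and comparison and the 10 genes most alike; il34, csf1b, c1qc, timd4 and cd79a, and all genes of the csf1ra likeness, were chosen after values were seen. Residuals of same-numbered libraries correlated at -0.207 to 0.271 over 18 pairs. All 3 pairs exceeded 0.1 only for surface wild and surface lab (0.153, 0.111 and 0.271), so the block is given for that comparison.

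Tried as alternatives were quantile and median-of-ratios scaling, 0.1 as the pseudocount, a minimum of 5 TPM or none, the replicate number as a block, fits of only the groups compared, and fits without single libraries.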

Additional observations from a re-analysis of the deposited data

Results flagged for a closer look

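Each gene here had a form difference that itself differed between wild-caught and laboratory livers, by the interaction test of limma over all tested genes (log2 scale, cave minus surface in wild-caught livers minus the same in laboratory livers). Among the 7 genes these were MPEG1 (-2.86, adjusted p = 0.0104), PTPRC (-2.50, 0.0144), coro1a (-2.11, 0.0155) and spi1b (-1.88, 0.048). Of the other lists, the named genes were the iron exporter gene slc40a1 (-3.46, adjusted p = 0.016), the phosphatase gene ptpn6 (-2.26, 0.0179), the transcription factor genes irf8 (-2.21, 0.0375) and spi1a (-1.89, 0.04), coro1b (-2.25, 0.00538), itgb2 (-2.48, 0.0134), lcp1 (-1.92, 0.0163), cd40 (-1.68, 0.0466), s1pr4 (-2.36, 0.0196) and swap70b (-1.50, 0.0363). All 14 interactions were negative, which does not tell which of the 4 groups departs, and the median of all tested genes was -0.61. After median-of-ratios scaling coro1b (-1.55, adjusted p = 0.0408), itgb2 (-1.76, 0.0408) and s1pr4 (-2.03, 0.0292) stayed called and the other 11 did not. s1pr4 and swap70b reached 1 TPM in the cave lab and surface wild libraries only. spi1b and spi1a did so in no cave wild and 1 surface lab library, and cd40 in 1 cave wild and no surface lab library. All of these genes thus passed the filter mainly through the groups in which they were high, and their interactions are given as a description. Without surface wild 1 and 2 the interaction was -3.48 for MPEG1. For the named genes of the other lists it was then between -2.94 (slc40a1) and -1.03 (swap70b). That fit leaves 1 library in surface wild, so none of the 14 calls is taken to hold there.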

How the results depend on the processing

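The number of the 7 genes called was 5 between the wild-caught forms, 1 between the laboratory forms, 4 between cave wild and cave lab, 3 between surface wild and surface lab, and 4 in the interaction. The 5 included adam8a, which passed the filter only through surface libraries. spi1b, which reached 1 TPM in no cave wild library, was in the 5 and in both counts of 4. Median-of-ratios scaling gave 1, 0, 0, 3 and 0, and quantile scaling 0, 0, 0, 2 and 0. At an unadjusted p below 0.05, limma gave 5, 3, 1, 4 and 4 of the 7 after median-of-ratios and 5, 4, 2, 4 and 4 after quantile scaling. Of all 12895 tested genes, the same cut gave 4598, 2491, 3337, 4632 and 2517 after median-of-ratios scaling. After quantile scaling it gave 4457, 2654, 3465, 4542 and 2333. Without a filter the counts were 3, 1, 3, 1 and 3, and at 5 TPM, where 5 of the 7 were tested, 3, 1, 3, 3 and 3. Of all 22848 genes tested without a filter, 3161, 1306, 4756, 1638 and 475 were called. Of the 7433 genes tested at 5 TPM, 2901, 381, 2732, 1863 and 305 were. The replicate block gave 5, 1, 4, 1 and 3, and fitting only the groups compared gave 3, 1, 5 and 0 (with 4 of the 7 at an unadjusted p below 0.05 in the last). Leaving out each library in turn gave 3 to 5, 0 to 2, 3 to 4, 0 to 3 and 3 to 4. A pseudocount of 0.1 gave 5, 1, 4, 2 and 4. Leaving out surface wild 1 and 2 together left 1 library in that group, so calls of that fit are not counted here. The median log2 difference of the 7 was then -0.925, 0.681, -1.185, 0.884 and -2.093. In the main fit it was -1.416, 0.681, -1.185, 0.896 and -2.106. Over all 12895 tested genes, 4074, 974, 4618, 2317 and 655 were called in the main fit. Median-of-ratios scaling called 2311, 760, 939, 2363 and 271, and quantile scaling 2025, 827, 934, 2351 and 232. The replicate block called 4011, 889, 4649, 2343 and 524, and 0.1 as the pseudocount called 4373, 753, 4560, 2152 and 617. Leaving out each library in turn called 1546 to 5162, 614 to 1059, 2179 to 5269, 882 to 3616 and 161 to 3035. Fitting only the groups compared called 1916, 787, 6209 and 122, with 5939 of the 6209 lower in cave wild than in cave lab.

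Signs turned for cd74a between the wild-caught forms (0.34 after median-of-ratios, 0.37 after quantile scaling), for adam8a between cave wild and cave lab (0.13, quantile), for adam8a without surface wild 1 and 2 (-0.44 between surface wild and surface lab, 0.22 in the interaction) and for csf1ra in the interaction, which ranged from -0.28 to 2.77 when libraries were left out. The mean log2 ratio of cd74a to PTPRC was 1.27 higher in cave than in surface libraries, and 1.19 to 1.46 higher with MPEG1, lcp1 or coro1a as the denominator, an alternative chosen after seeing the data, as was leaving out each library (1.03 to 1.40). Because TPM keeps no depth, the counting error of low genes such as adam8a and spi1b cannot be given.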

Other observations

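The 3 libraries with high csf1ra (surface wild 2 and surface lab 1 and 2) were also high in genes of other functions. These were found after the csf1ra values were seen, by correlation of log2(TPM + 1) over the 12 libraries, and are given as a description. The gene most like csf1ra was siae, which encodes a sialic acid acetylesterase, at 16.3 TPM in surface wild 2 and 463.37 and 345.93 TPM in surface lab 1 and 2, against 0.24 to 3.25 TPM in the other 9 libraries (r = 0.93). psmc5, a subunit of the proteasome cap, was at 164.34, 116.17 and 150.63 TPM in the same libraries against 28.54 to 59.03 TPM in the others, and psmb1, a subunit of its core, at 392.33, 299.2 and 341.21 TPM against 43.25 to 152.26 TPM. Of the 50 genes most like csf1ra, 15 encode proteasome subunits, of which there were 52 among 10313 tested genes with a symbol. In the RefSeq annotation of the AstMex3_surface assembly the genes next to csf1ra are hmgxb3 and pdgfrb, and cd74a lies nearby with 4 genes between. hmgxb3 was at 1.53, 0.83 and 1.19 TPM and pdgfrb at 0.62, 1.08 and 2.46 TPM in the 3 libraries, within the ranges of the other 9 for hmgxb3 (0.2 to 1.72 TPM) and, but for surface lab 2, for pdgfrb (0.2 to 2.39 TPM).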
